A study of Mus musculus with 36 samples.

Results

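The receptor genes numbered Olfr829 to Olfr984 on mouse chromosome 9 were examined as 1 series. Its members are the genes whose GENCODE vM21 symbol is Olfr with a number in that range and no suffix, apart from 6 numbers that the rule leaves out. They came to 102 of 57010 gene identifiers in the count tables, and to 102 of 1108 olfactory receptor genes. In that annotation all 102 lie on chromosome 9, 99 as protein-coding genes and 3 as polymorphic pseudogenes. They form 2 position runs separated by more than 1 Mb, with 30 members from Olfr829 to Olfr873 and 72 from Olfr875 to Olfr984. By the MOR names in RefSeq, which group mouse receptors by protein similarity, they belong to 26 families. MOR171 is the largest with 26 members, followed by MOR162 with 9, MOR224 with 8 and MOR165 with 7.

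RNA on ribosomes that carry the phosphorylated form of ribosomal protein S6 was captured with an antibody (pS6 immunoprecipitation) and sequenced from olfactory epithelium. All mice were wild-type C57BL/6J males aged 8 weeks, housed singly, habituated for 4 h in clean chambers, and given 10 µL on filter paper for 90 min. The AD set held acetophenone, decanal, their 1:1 mixture and no-odor controls, and the OC set held octanal, cis-3-hexenol, their 1:1 mixture and no-odor controls. The FM set held a floral fragrance, a mint fragrance, a floral-mint blend and no-odor controls. Controls received empty filter paper, and single odorants were undiluted. Each of the 12 groups had 3 libraries, which the labels call biological replicates, and p-values measure the spread between these. Every comparison was made inside a set, since each set has its own controls and its own count table. Whether the sets were also separate batches is not stated in the sample titles.

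An olfactory receptor gene encodes a G protein-coupled receptor on the cilia of olfactory sensory neurons. Each mature neuron transcribes essentially a single receptor gene from a single allele, so the RNA of a receptor stands for the neurons that chose it. Binding of an odorant activates the G protein subunit encoded by Gnal and adenylyl cyclase 3 (Adcy3), and the cyclic AMP formed opens the Cnga2 channel. S6 becomes phosphorylated in neurons that have fired, and receptor RNA captured with pS6 therefore marks neurons active after exposure. In bulk RNA, fewer cells of a type and less RNA per cell cannot be told apart. For most members no odorant is named in the labels, and none is given here as background.

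The MOR162 family held more members called higher with acetophenone than any other family of the series. A stretch of its coding sequence is printed, chosen as the window without gaps where most positions vary among these genes. Because it was picked for difference, it does not measure how alike the whole coding sequences are. The 75 bases are coding bases 421 to 495 of Olfr889 and the aligned bases of the other 8 members, from GENCODE vM21 transcripts (GRCm38), chromosome 9, 5′ to 3′ on the coding strand. Capitals mark bases that differ from Olfr889, and 45 of the 75 positions vary within the family. The first 4 were called higher with acetophenone, Olfr884 and Olfr887 were tested and not called, and Olfr885, Olfr888 and Olfr883 were too low to test.
Olfr889: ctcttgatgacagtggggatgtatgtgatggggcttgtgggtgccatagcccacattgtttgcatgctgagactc
Olfr890: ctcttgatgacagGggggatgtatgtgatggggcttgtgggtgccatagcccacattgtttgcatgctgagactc
Olfr901: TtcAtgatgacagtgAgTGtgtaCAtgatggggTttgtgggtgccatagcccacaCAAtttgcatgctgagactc
Olfr881: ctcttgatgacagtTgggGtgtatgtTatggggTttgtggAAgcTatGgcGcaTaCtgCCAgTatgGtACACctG
Olfr884: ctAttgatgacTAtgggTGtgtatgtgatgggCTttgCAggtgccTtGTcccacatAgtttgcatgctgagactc
Olfr885: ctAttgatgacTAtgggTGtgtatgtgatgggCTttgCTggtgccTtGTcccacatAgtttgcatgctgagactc
Olfr887: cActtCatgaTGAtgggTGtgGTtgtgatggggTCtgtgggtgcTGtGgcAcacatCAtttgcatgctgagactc
Olfr888: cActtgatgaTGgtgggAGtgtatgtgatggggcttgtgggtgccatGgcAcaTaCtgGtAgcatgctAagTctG
Olfr883: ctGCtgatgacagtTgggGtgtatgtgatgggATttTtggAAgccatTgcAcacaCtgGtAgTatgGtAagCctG

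In this stretch Olfr890 differs from Olfr889 at 1 base, Olfr901 at 11 and Olfr881 at 21, while the other 5 differ at 13 to 19. Over whole coding sequences the 36 pairs of the family were 82.42% to 93.85% identical. Olfr889 was 91.8% identical to Olfr890, 90.61% to Olfr884, 88.24% to Olfr881 and 85.11% to Olfr901. The uncalled Olfr884 was thus nearer in coding sequence to Olfr889 than the called Olfr881 and Olfr901 were. Olfr884 missed the call with acetophenone at a log2 change of 2.28 (edgeR adjusted p 0.145). The call of Olfr881 held in 2 of 6 fits that left out a library. Members were not tested against each other, so a different response of Olfr884 is not shown.

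A close pair with unequal values is Olfr847 and Olfr846, the 2 members of MOR149, which lie next to each other by symbol. Their coding sequences were 88.57% identical, with 107 differing bases of 936. Coding bases 22 to 96 of each are shown from the same source, with capitals in Olfr846 for the 22 bases that differ from Olfr847. This window too was picked for the most differing positions.
Olfr847: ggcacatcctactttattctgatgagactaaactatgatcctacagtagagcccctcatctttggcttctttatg
Olfr846: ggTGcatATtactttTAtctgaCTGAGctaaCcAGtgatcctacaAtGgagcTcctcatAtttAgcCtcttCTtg

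Of the 102 members, 19 have a near-identical copy, meaning another receptor transcript that matches at 95% identity or more along 200 bases or more. These members can exchange reads with their copies, and their values are uncertain to that extent. Among the members named below they are Olfr832 (copy Olfr834), Olfr875 (Olfr874), Olfr935 (Olfr146), Olfr960 (Olfr961), Olfr978 and Olfr980 (copies of each other) and Olfr984 (Olfr1506 and Olfr328). The search flagged no copy for the other 83, but it judged whole matches between transcripts and can miss pairs alike in coding sequence alone. Within MOR165, where no member was flagged, the closest pair was 96.02% identical in coding sequence. Olfr910 and Olfr912 of that family had fractional AD totals of 513.283 and 436.717 counts, so unflagged members can share reads too. No member of MOR162 and neither member of MOR149 is among the 19.

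Library totals ran from 16039587 to 26388104 counts. Receptor neurons were well represented, with Omp, a marker of mature olfactory neurons, at 4014 to 14058 CPM (counts scaled to library size) over the 36 libraries. A list of 20 olfactory transduction and mature neuron genes, drawn up with results of these data known, was tested in full. It had 15 members higher with acetophenone, 7 with decanal, 9 with the acetophenone-decanal mixture, 19 with octanal, 11 with cis-3-hexenol, 19 with the octanal-hexenol mixture, 9 with the floral fragrance, 14 with mint and 13 with floral-mint. Of the list, 1 member was lower with decanal and 1 with the acetophenone-decanal mixture, and none was lower with the other odors. Red blood cell genes moved with several groups: the summed level of 4 of them was 4423 to 13749 CPM with octanal and 5275 to 12202 CPM with the octanal-hexenol mixture, against 46711 to 55301 CPM in OC controls. All 4 were called lower with octanal, cis-3-hexenol and their mixture. The part of blood content in the results below was not tested.

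Without odor the members were low. Over the 9 control libraries 25 members averaged at least 1 CPM, 23 averaged under 0.1 CPM and 7 had no count at all, and the median member averaged 0.332 CPM. The 5 with the highest mean CPM, a value that grows with transcript length, were Olfr921, Olfr873, Olfr868, Olfr981 and Olfr887, which together held 25.5% of the members' CPM in controls. Olfr921 (MOR165-8) had a lowest control value of 2.83, a median of 4.26 and a highest of 7.56 CPM. Olfr873 (MOR145-2) ran from 2.59 through a median of 3.56 to 8.46 CPM. Olfr868 (MOR145-4) ran from 1.104 to 5.60 CPM, Olfr981 (MOR223-8) from 0.837 to 7.85 CPM and Olfr887 (MOR162-5) from 1.19 to 3.996 CPM. These ranges pool the controls of 3 sets and include differences between sets. Olfr981 averaged 1.44 CPM in AD, 5.03 CPM in OC and 1.12 CPM in FM controls, and Olfr873 averaged 3.18, 7.67 and 3.16 CPM. Scaled by the length of the annotated exons, the levels gave another order, with Olfr969 first at 1.22 CPM per kb, Olfr921 next at 1.13, then Olfr855 at 0.957, Olfr873 at 0.922 and Olfr910 at 0.905 CPM per kb. Summed over all members the level averaged 67.8 CPM in AD, 75.01 CPM in OC and 57.1 CPM in FM controls.

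Members make up 9.21% of the receptor genes but took 1.32% to 4.68% of receptor counts in every library. With acetophenone they held 4.68%, 2.97% and 3.49% of receptor counts, against 1.65%, 2.10% and 2.07% in AD controls. The acetophenone libraries did not overlap the controls, as the plot of shares by group shows. The acetophenone-decanal mixture gave 2.80% ± 0.564 (SD, n = 3) and decanal 1.47% ± 0.172, against 1.94% ± 0.251 in controls. Octanal gave 1.70% ± 0.309, cis-3-hexenol 2.64% ± 0.459 and their mixture 1.61% ± 0.199, against 3.07% ± 0.219 in OC controls. In the FM set floral gave a share of 1.96% ± 0.175, mint 1.66% ± 0.0622 and the floral-mint blend 1.80% ± 0.0823, against 1.86% ± 0.0580 in controls. These shares are descriptions with no test, since they sum over members chosen with results known.

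**Figure D1:**
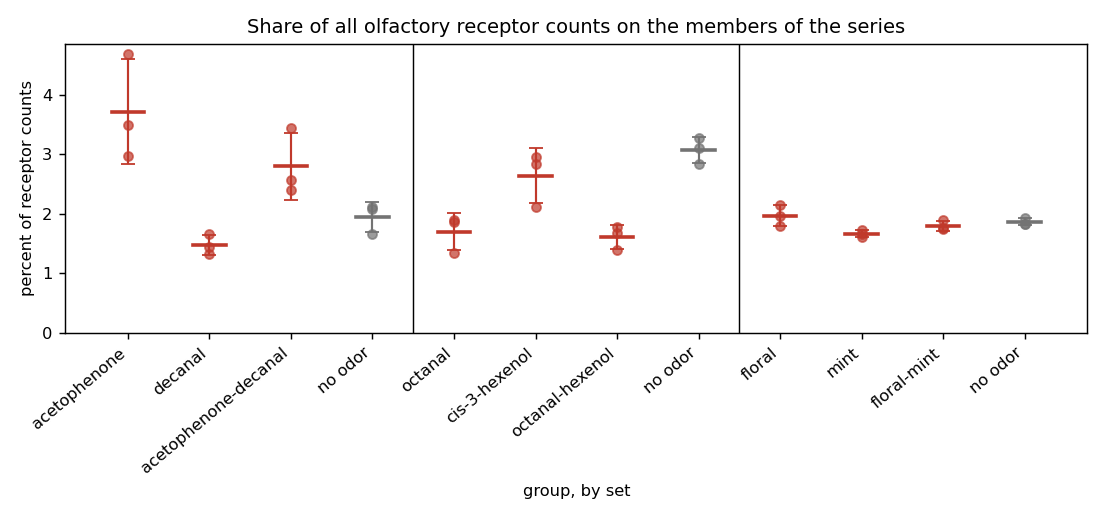
Percent of all olfactory receptor counts that fell on the 102 members (y axis), for the 12 groups in 3 sets (x axis); points are libraries, thick bars are means, error bars are SD over 3 libraries, and grey marks no-odor controls. The acetophenone libraries sit at 2.97% to 4.68%, above AD controls at 1.65% to 2.10%, while octanal averaged 1.70% against 3.07% in OC controls. Receptor genes together averaged 0.600% of all counts with octanal and 0.243% in OC controls, and members 0.0100% and 0.0075%.

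Of the 102 members, 68 passed the filter on low counts in at least 1 set: 52 in all 3 sets, 9 in 2 sets and 7 in 1 set. The other 34 were tested nowhere, and 3 of those had no count in any of the 36 libraries. A member was called at a Benjamini-Hochberg adjusted p under 0.05 from the quasi-likelihood test of edgeR, adjusted over all genes of the set. Against no odor 21 members were called higher with at least 1 of the 9 odors, 3 in the first position run and 18 in the second, of 17 and 51 members tested there. Another 81 were called higher with none, and 4 were called lower with at least 1 odor. Of the 68 members tested, 30.9% were thus higher and 5.88% lower with at least 1 odor, where 41.5% and 14.4% of tested receptors outside the series and 30.2% and 32.3% of all tested genes were. Because a low gene passes the filter through the group where it is high, these counts describe the calls and do not weigh the members against other receptors.

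**Figure D2:**
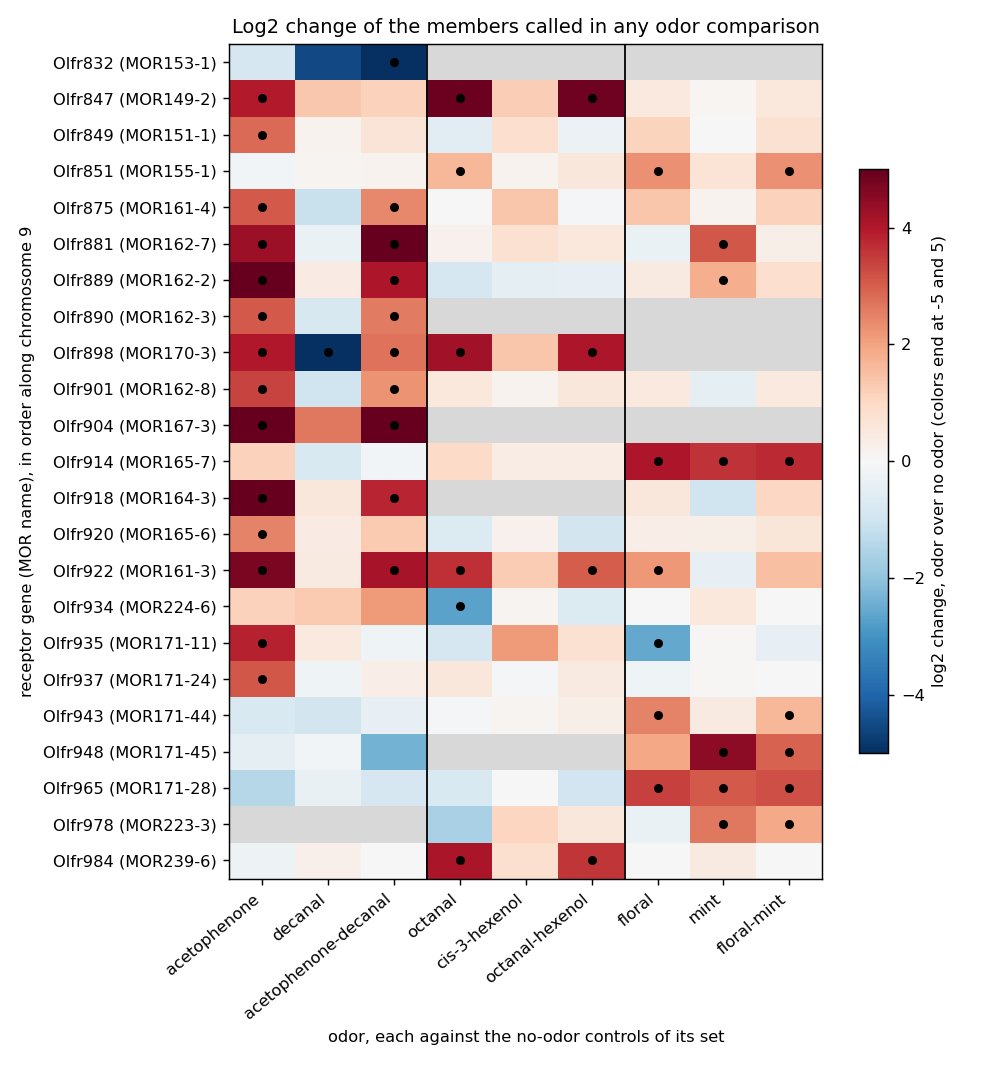
Log2 change of each odor over the no-odor controls of its set (color, ending at -5 and 5) for the 23 members called in any of the 9 odor comparisons (rows, in order along chromosome 9) and the 9 odors (columns, in 3 sets); dots mark calls at adjusted p under 0.05 and grey marks members not tested in a set. Acetophenone has 14 members called higher, most between Olfr875 and Olfr937, while Olfr914 and Olfr965 are called with all 3 fragrances and Olfr922 in all 3 sets.

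Acetophenone, an aromatic ketone, had more members called higher than any other odor tested, 14 of 62 tested, and 0 called lower. The 14 were 22.6% of members tested, where 11.9% of the tested receptors outside the series and 4.22% of all genes were called higher. With no member called lower, 3 were lower at an unadjusted p under 0.05 and DESeq2 gave 0, where 0.991% of receptors outside the series and 1.27% of all genes were called lower. Called members were Olfr889, Olfr901, Olfr922, Olfr898, Olfr918, Olfr904, Olfr875, Olfr935, Olfr847, Olfr881, Olfr849, Olfr920, Olfr937 and Olfr890, in order of p. They comprised 4 of the 9 MOR162 members, 2 of the 3 MOR161 members and 2 of the 26 MOR171 members, with the rest 1 each from MOR149, MOR151, MOR164, MOR165, MOR167 and MOR170. The median log2 change of members tested was 0.34, against -0.01 for other receptors and 0.00 for all genes. Scaling to the median receptor gene would shift log2 changes with acetophenone by -0.18.

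Olfr889 (MOR162-2, ENSMUSG00000096356) had 29.7, 21.7 and 28.3 CPM with acetophenone, against 1.03, 0.176 and 1.26 CPM in controls. All acetophenone libraries were far above all controls. The log2 change was 4.99 (SE 0.485, edgeR adjusted p 6.36e-05). Olfr901 (MOR162-8, ENSMUSG00000052058) had 29.4, 16.8 and 36.8 CPM with acetophenone, against 1.55, 4.06 and 2.30 CPM in controls. Again no exposed library overlapped the controls, and the log2 change was 3.40 (SE 0.431, edgeR adjusted p 0.000556). Olfr922 (MOR161-3, ENSMUSG00000043911) had 14.95, 5.12 and 15.8 CPM with acetophenone, against 0.0397, 0.573 and 0.782 CPM in controls. One acetophenone library was well below the others yet still above every control, and the log2 change was 4.69 (SE 0.615, edgeR adjusted p 0.000672).

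Olfr898 (MOR170-3, ENSMUSG00000094588) had 7.90, 14.8 and 6.24 CPM with acetophenone, against 0.119, 1.01 and 0.652 CPM in controls. The groups did not overlap, and the log2 change was 4.02 (SE 0.565, edgeR adjusted p 0.00193). Olfr918 (MOR164-3, ENSMUSG00000046150) had 7.27, 5.79 and 4.64 CPM with acetophenone, against 0.119, 0 and 0.174 CPM in controls. It was almost silent without odor and even among the exposed libraries, with a log2 change of 5.82 (SE 0.990, edgeR adjusted p 0.00382). Olfr904 (MOR167-3, ENSMUSG00000094380) had 198, 58 and 5 counts with acetophenone, against 1, 0 and 0 counts in controls. Its acetophenone libraries were the most uneven of the 14, and the ratio of summed counts scaled by library size was 265 with a counting interval of 47.1 to 10500 at 95%, which covers counting error only. The edgeR adjusted p was 0.00549.

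The remaining 8 had log2 changes of 2.48 to 4.29 and edgeR adjusted p of 0.0193 to 0.0355. Their acetophenone libraries were uneven. Olfr881 (MOR162-7) had 20.6, 3.77 and 0.927 CPM with acetophenone, against 0.358, 0.573 and 0.348 CPM in controls. Olfr935 (MOR171-11) had 6.89, 13.0 and 1.096 CPM with acetophenone, against 0.358, 0.661 and 0.434 CPM in controls. Olfr847 had 3.49, 7.32 and 0.801 CPM with acetophenone, against 0.159, 0.264 and 0.304 CPM in controls. In each of these the third acetophenone library was the lowest and lay close above the controls. That library was the lowest of its group for 10 of the 14 members and acetophenone replicate 2 for the other 4. The ratio of the highest to the lowest acetophenone library ran from 1.36 in Olfr889 to 39.5 in Olfr904.

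**Figure D3:**
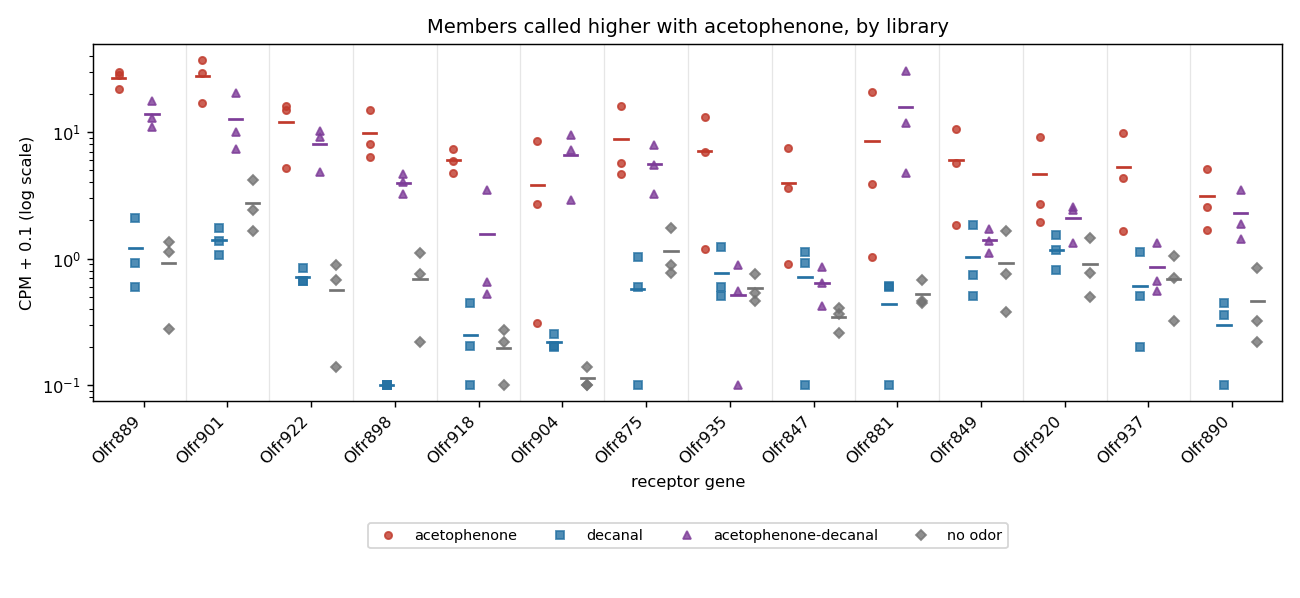
CPM plus 0.1 on a log axis (y) for the 14 members called higher with acetophenone, in order of p (x), in the 4 groups of the AD set; points are libraries and short bars are means of 3 libraries. Acetophenone libraries lie above the controls for all 14, and the mixture lies between acetophenone and controls for members such as Olfr889 at 10.9 to 17.6 CPM. With decanal, Olfr898 was at 0 CPM in all 3 libraries and was called lower, while no other of the 14 was called.

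The calls split by how they held when single libraries were left out. Olfr889, Olfr901, Olfr922, Olfr898, Olfr918 and Olfr904 were called in all 6 such fits. Leaving out control replicate 1 gave 6 calls, control replicate 2 gave 7 and control replicate 3 gave 9, while leaving out acetophenone replicate 1, 2 or 3 gave 10, 8 or 14. Every call made in these fits was among the 14. Olfr847, Olfr849, Olfr875, Olfr881, Olfr890, Olfr920, Olfr935 and Olfr937 were each lost in at least 3 of the 6. The nearest members outside the call were Olfr884 at a log2 change of 2.28 (edgeR adjusted p 0.145), Olfr914 at 1.15 (0.153) and Olfr965 at -1.44 (0.153). The summed level of the 4 red blood cell genes was 1516 to 7876 CPM with acetophenone, against 9362 to 12440 CPM in controls. The summed level of 4 neutrophil genes was 48.8 to 80.5 CPM with acetophenone, against 85.1 to 181 CPM in controls, and the part of either in the calls was not tested.

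The other MOR162 members did not pass the test. Olfr884 had 2.27, 1.66 and 0.379 CPM with acetophenone, against 0.477, 0.0882 and 0.304 CPM in controls, and 1 exposed library fell inside the control range. Olfr887 had 5.08, 7.41 and 3.75 CPM with acetophenone, against 3.10, 1.85 and 3.996 CPM in controls, with a log2 change of 0.86 (SE 0.391, edgeR adjusted p 0.229). Olfr888 had 0.714, 0.0449 and 0.421 CPM with acetophenone and 0 in all 3 controls, and was too low to be tested. Olfr885 had 0 in all 12 libraries of the AD set and Olfr883 in all 36 libraries.

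With decanal, a straight-chain aldehyde, 0 members were called higher and 1 lower among 62 tested, with 2 higher at an unadjusted p under 0.05 and 0 higher by DESeq2. Of receptors outside the series 8.18% were called higher and 7.06% lower, and of all genes 10.8% and 11.5%. The lower member was Olfr898, with 0 counts in all 3 decanal libraries, against 3, 23 and 15 counts in controls. Against a floor of 3 counts over the group it was at least 11.5-fold lower (edgeR adjusted p 0.00481). Its direction was therefore opposite with acetophenone and decanal, and between those odors it was at least 189-fold higher with acetophenone (edgeR adjusted p 2.61e-05). The 1 call became 2 without control replicate 2 or without decanal replicate 2, and 3 by DESeq2 or without the filter. The summed level of the red blood cell genes was 23345 to 25396 CPM with decanal, against 9362 to 12440 CPM in controls, and its part was not tested.

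With the acetophenone-decanal mixture 9 members were called higher and 1 lower, among 62 tested. Higher members were 14.5% of those tested and lower ones 1.61%, where 13.1% and 6.82% of receptors outside the series and 10.9% and 10.4% of all genes were called. The 9 were Olfr889, Olfr922, Olfr904, Olfr901, Olfr881, Olfr898, Olfr918, Olfr875 and Olfr890. All of them had also been called with acetophenone, a comparison that shares the controls. Olfr889 had 10.9, 12.9 and 17.6 CPM with the mixture, against the controls given above, at a log2 change of 4.05 (SE 0.478, edgeR adjusted p 0.000123). Olfr881 had 11.8, 4.64 and 30.5 CPM, which overlapped its acetophenone range, at a log2 change of 5.18 (SE 1.07, edgeR adjusted p 0.00403). Olfr904 had 146, 61 and 200 counts with the mixture, against 1, 0 and 0 in controls. The single lower member, Olfr832, had 0 counts in all mixture libraries, against 12, 0 and 24 in controls, so the groups overlapped. By summed counts it was 10.7-fold lower against the floor, a figure that leaves out the spread between libraries. Its call was lost in 5 of 6 fits that left out a library, all but the one without control replicate 2. With the replicate block its edgeR adjusted p was 0.0537. Olfr875 was lost without control replicate 1 or 2 or mixture replicate 1, Olfr890 without control replicate 1 or 2 or mixture replicate 3, and Olfr918 without control replicate 2 or mixture replicate 1.

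Mixture and acetophenone were then compared directly. Each component filled only part of the volume on the paper in the mixture, and an effect of mixing and of less acetophenone cannot be told apart. With 0 members higher, 7 were lower in the mixture than with acetophenone, 11.3% of members tested, where 12.5% of receptors outside the series and 14.4% of all genes were lower. Higher were 5.95% of receptors outside the series and 11.3% of all genes. At an unadjusted p under 0.05 there was 1 member higher, and DESeq2 gave 1. The 3 with the smallest p were Olfr921, Olfr935 and Olfr937. Olfr921 had 2.75, 3.99 and 4.06 CPM with the mixture, against 12.1, 6.65 and 9.06 CPM with acetophenone, at a log2 change of -1.36 (SE 0.302, edgeR adjusted p 0.00456). It was not called against controls with acetophenone (log2 change 0.49) nor with the mixture (-0.88). Olfr935 had 0.784, 0.459 and 0 CPM with the mixture, against 6.89, 13.0 and 1.096 CPM with acetophenone, without overlap, at -4.07 (SE 0.908, edgeR adjusted p 0.00489). Olfr937 (MOR171-24) differed by -2.78 (SE 0.763, edgeR adjusted p 0.0161). Of the 14 acetophenone members, 5 were among these 7: Olfr935, Olfr937, Olfr849, Olfr847 and Olfr901. For the 14 the median log2 change over controls was 2.49 with the mixture and 3.91 with acetophenone, and 12 had the lower fitted value in the mixture. The 14 were chosen by high values in these same acetophenone libraries. That choice alone favors a lower value in the mixture, so these figures describe the 14 and do not test a weaker response. The count of 7 was 3 without acetophenone replicate 1, 4 and 3 without mixture replicates 2 and 3, 12 by DESeq2 (1 higher and 11 lower) and 13 without the filter. All 4 red blood cell genes and 3 of 4 neutrophil genes were higher in the mixture than with acetophenone, and their part in these calls was not tested.

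Against decanal the mixture had 5 members higher and 0 lower, where 5.2% and 0.743% of receptors outside the series and 0.251% and 0.0359% of all genes were called. Lower at an unadjusted p under 0.05 were 2 members, and DESeq2 gave 0. The higher ones were Olfr889, Olfr898, Olfr901, Olfr922 and Olfr904, all called with acetophenone. Olfr889 had 10.9, 12.9 and 17.6 CPM with the mixture, against 1.99, 0.818 and 0.493 CPM with decanal, at a log2 change of 3.65 (SE 0.470, edgeR adjusted p 0.00169). Olfr898 had 64, 86 and 97 counts with the mixture and none with decanal, at least 77.2-fold higher. The count of 5 was 3 without any 1 of the decanal libraries or without mixture replicate 1.

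Acetophenone and decanal differed in 19 members, 18 higher with acetophenone and 1 lower. Of receptors outside the series 20.6% were higher and 10.4% lower, and of all genes 16.5% and 12.9%. All 14 acetophenone members were among the 18, joined by Olfr921, Olfr914, Olfr887 and Olfr835. The 14 had been called from the same acetophenone libraries, so their presence here is not separate evidence. Olfr901 had 29.4, 16.8 and 36.8 CPM with acetophenone, against 0.971, 1.64 and 1.28 CPM with decanal, at a log2 change of 4.41 (SE 0.469, edgeR adjusted p 2.18e-05). The lower member, Olfr980 (MOR223 family), had 0 counts in all acetophenone libraries, against 0, 9 and 22 with decanal, which overlap. By summed counts it was 12.1-fold lower against the floor, a figure that leaves out the spread between libraries. The count of 19 was 12 without acetophenone replicate 2. All 4 red blood cell genes were lower with acetophenone, at a summed 1516 to 7876 CPM, against 23345 to 25396 CPM with decanal. All 4 neutrophil genes were lower as well, at a summed 48.8 to 80.5 CPM with acetophenone, against 162 to 199.7 CPM with decanal. Of the 20 transduction and mature neuron genes 12 were higher and 1 lower, and the part of these lists in the calls was not tested.

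Octanal, a shorter aldehyde than decanal, gave 5 members higher and 1 lower among 56 tested. That is 8.93% and 1.79% of members tested, where 22.4% and 2.86% of receptors outside the series and 17.9% and 14.4% of all genes were called. The 5 were Olfr984, Olfr847, Olfr922, Olfr851 and Olfr898, and Olfr934 was lower. The median log2 change of members tested was -0.17, against -0.01 for other receptors. The summed level of 4 neutrophil genes was 55.3 to 146 CPM with octanal, against 282 to 382 CPM in controls, and its part in the calls was not tested.

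Olfr984 (MOR239-6, ENSMUSG00000045812) had 20.9, 19.4 and 15.8 CPM with octanal, against 1.59, 0.827 and 0.853 CPM in controls. All exposed libraries were near each other and well above the controls, with a log2 change of 4.07 (SE 0.279, edgeR adjusted p 1.7e-07). Olfr984 has near-identical copies, and reads could be shared with them. Olfr847 (MOR149-2, ENSMUSG00000059821) had 4.91, 8.74 and 19.7 CPM with octanal, against 0.149, 0.945 and 0 CPM in controls. The exposed libraries were uneven but did not overlap the controls, and the log2 change was 4.91 (SE 0.670, edgeR adjusted p 7.65e-05). Its relative Olfr846, printed beside it above, had 0.350, 0.177 and 0.378 CPM with octanal, against 0, 0 and 0.131 CPM in controls, and was too low to be tested. The octanal libraries of Olfr846 also lay above all its controls, so a response unlike that of Olfr847 is not shown.

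Olfr922 had 7.61, 3.07 and 1.78 CPM with octanal, against 0.248, 0.413 and 0.328 CPM in controls, at a log2 change of 3.65 (SE 0.647, edgeR adjusted p 0.000613). Olfr851 (MOR155-1, ENSMUSG00000052625) had 9.11, 6.14 and 3.67 CPM with octanal, against 1.88, 2.78 and 1.38 CPM in controls, at 1.64 (SE 0.422, edgeR adjusted p 0.00783). In both, all octanal libraries were above all controls, and replicate 1 was the highest. Olfr898 had 34, 5 and 8 counts with octanal, against 0, 2 and 0 in controls, a ratio of 22.2 with a counting interval of 5.81 to 189. Its call was lost without octanal replicate 1, control replicate 1 or control replicate 3, and that of Olfr851 without octanal replicate 1. Olfr934 (MOR224-6) had 0.2002, 0 and 0.108 CPM with octanal, against 0.397, 1.00 and 0.787 CPM in controls, at -2.69 (SE 0.740, edgeR adjusted p 0.0116).

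**Figure D4:**
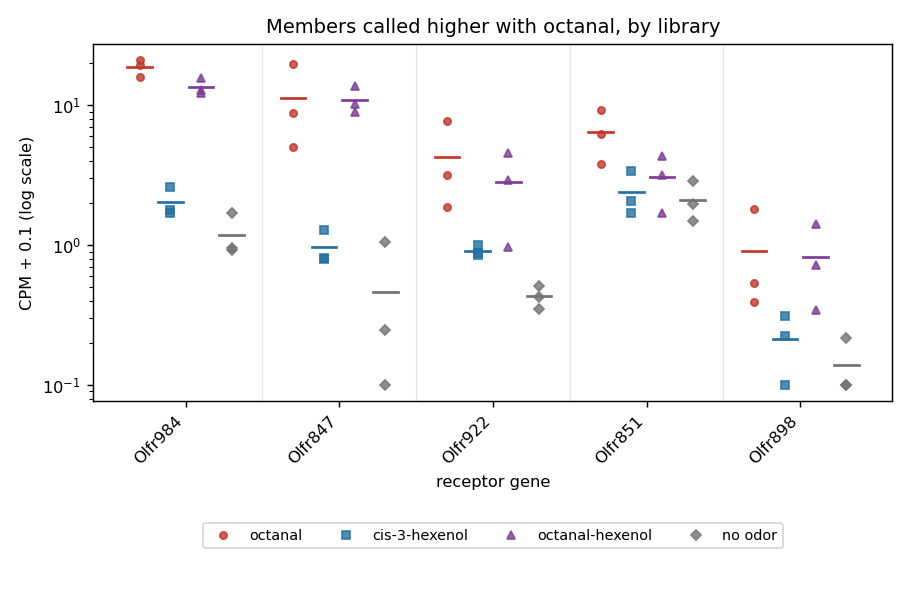
CPM plus 0.1 on a log axis (y) for the 5 members called higher with octanal (x) in the 4 groups of the OC set; points are libraries and short bars are means of 3 libraries. For Olfr984 octanal libraries reach 15.8 to 20.9 CPM and mixture libraries 12.04 to 15.4 CPM, while cis-3-hexenol stays at 1.60 to 2.50 CPM and controls at 0.827 to 1.59 CPM.

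Cis-3-hexenol, an unsaturated alcohol of cut grass, gave 0 members higher and 0 lower by edgeR among 56 tested. At an unadjusted p under 0.05 there were 6 higher and 1 lower, and DESeq2 called 1 higher. Of receptors outside the series 8.46% were called higher and 0% lower, and of all genes 2.58% and 3.16%. The smallest p belonged to Olfr982 (chosen after its values were seen), at a log2 change of 1.37 (SE 0.405, edgeR adjusted p 0.0574). Members tested had a median log2 change of 0.50, against 0.44 for other receptors. When libraries were scaled to the median receptor gene, log2 changes with cis-3-hexenol moved by -0.52, and 1 member was then called lower and 0 higher.

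With the octanal-hexenol mixture 4 members were called higher and 0 lower, where 24.3% and 0.871% of receptors outside the series and 17.7% and 14.8% of all genes were called. No member was lower at an unadjusted p under 0.05 or by DESeq2. The 4 were 7.14% of members tested: Olfr984, Olfr847, Olfr922 and Olfr898. Olfr984 had 15.4, 12.8 and 12.04 CPM with the mixture, against the controls above, at a log2 change of 3.59 (SE 0.277, edgeR adjusted p 4.4e-07). Olfr847 had 13.5, 8.92 and 10.1 CPM with the mixture, more even than with octanal, at 4.87 (SE 0.669, edgeR adjusted p 7.94e-05). Olfr922 had 4.43, 2.83 and 0.863 CPM with the mixture, at 3.02 (SE 0.648, edgeR adjusted p 0.00250). Olfr898 had 27, 13 and 6 counts, a ratio of 18.3 over controls with a counting interval of 4.79 to 156, and its call was lost without mixture replicate 1, control replicate 1 or control replicate 3. All 4 had been called with octanal, which shares the controls.

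The mixture differed from octanal in 0 members by edgeR, with 3 higher and 2 lower at an unadjusted p under 0.05 and 0 by DESeq2. Of receptors outside the series 1.37% were higher and 0% lower, and of all genes 0.0715% and 0%. Olfr984 was at 13.4 ± 1.80 CPM with the mixture and 18.7 ± 2.59 CPM with octanal (SD, n = 3 each), a log2 difference of -0.48 (SE 0.227, edgeR adjusted p 0.998). Against cis-3-hexenol the mixture had 2 members higher and 0 lower, where 14.3% and 1.87% of receptors outside the series and 7.86% and 5.03% of all genes were called. Olfr984 was higher by 2.80 (SE 0.257, edgeR adjusted p 7.52e-06) and Olfr847 by 3.62 (SE 0.583, edgeR adjusted p 0.00236). At an unadjusted p under 0.05, 2 were lower, and DESeq2 gave 0 lower.

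Octanal and cis-3-hexenol differed in 11 members, 4 higher with octanal and 7 lower. Of receptors outside the series 16.7% were higher and 12.1% lower, and of all genes 12% and 8.98%. Olfr984, Olfr847, Olfr922 and Olfr851 were higher. Olfr984 had 20.9, 19.4 and 15.8 CPM with octanal, against 1.60, 1.68 and 2.50 CPM with cis-3-hexenol, at a log2 difference of 3.28 (SE 0.259, edgeR adjusted p 1.04e-06). Lower with octanal were Olfr959, Olfr934, Olfr867, Olfr935, Olfr981, Olfr878 and Olfr960. The median log2 difference was -0.55 for members tested and -0.44 for other receptors, against -0.04 for all genes. Receptors as a group thus leaned lower with octanal than with cis-3-hexenol, and the 7 are not separated from that lean here. Olfr959 had 0.801, 2.36 and 1.03 CPM with octanal, against 3.06, 6.12 and 6.33 CPM with cis-3-hexenol, without overlap, at -1.90 (SE 0.473, edgeR adjusted p 0.0118). Olfr867 had 0.901, 0.886 and 0.865 CPM with octanal, against 2.31, 3.16 and 2.93 CPM with cis-3-hexenol, at -1.66 (SE 0.441, edgeR adjusted p 0.0162). Without octanal replicate 1 the 11 calls became 4, without octanal replicate 3 they became 18, and leaving out cis-3-hexenol replicate 2 or 3 gave 4 or 3. Of the 20 transduction and mature neuron genes 14 were higher with octanal, at a summed 27282 to 38493 CPM, against 16125 to 22196 CPM with cis-3-hexenol. Lower with octanal were 3 of 5 basal cell genes, at a summed 66.3 to 74.2 CPM, against 76.6 to 93.4 CPM with cis-3-hexenol. Also lower were 2 of 4 red blood cell genes, at a summed 4423 to 13749 CPM with octanal, against 11609 to 17232 CPM with cis-3-hexenol, and 2 of 4 neutrophil genes, at 55.3 to 146 CPM, against 161 to 180.1 CPM. The part of these lists in the calls was not tested. Scaling to the median receptor gene moves log2 changes over controls by -0.17 with octanal and -0.47 with the mixture.

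Olfr914 and Olfr965 were called higher with all 3 fragrances, and 7 other members with 1 or 2 of them. Floral gave 5 members higher and 1 lower among 63 tested, or 7.94% and 1.59%, where 9.81% and 1.78% of receptors outside the series and 8.7% and 5.35% of all genes were called. Mint gave 6 higher and 0 lower, or 9.52% higher, where 13% and 1.66% of receptors outside the series and 7.1% and 4.07% of all genes were called. Floral-mint gave 6 higher and 0 lower, where 12.1% and 1.53% of receptors outside the series and 6.42% and 3.22% of all genes were called. Lower at an unadjusted p under 0.05 were 2 members with mint and 3 with floral-mint, and DESeq2 called 0 lower in both. Of the 4 red blood cell genes 3 were higher with floral, at a summed 22562 to 44829 CPM, against 17831 to 20116 CPM in controls, and their part in the calls was not tested.

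Olfr914 (MOR165-7, ENSMUSG00000047050) had 18.2, 17.8 and 15.9 CPM with floral, 9.58, 14.03 and 14.8 CPM with mint and 15.2, 12.8 and 13.9 CPM with floral-mint, against 0.748, 1.65 and 0.718 CPM in controls. Every exposed library was far above the highest control. The log2 changes were 4.05 (SE 0.249, edgeR adjusted p 1.3e-07) for floral, 3.62 (SE 0.251, 3.57e-07) for mint and 3.74 (SE 0.2498, 2.47e-07) for floral-mint. Olfr965 (MOR171-28, ENSMUSG00000095839) had 9.62, 8.01 and 2.58 CPM with floral, 3.97, 6.51 and 5.11 CPM with mint and 7.91, 3.76 and 6.16 CPM with floral-mint, against 0.534, 0.826 and 0.518 CPM in controls. No exposed library overlapped the controls, and log2 changes were 3.42, 3.05 and 3.24 (edgeR adjusted p 0.000321, 0.000770 and 0.000551).

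Other members separated the floral from the mint fragrance. Olfr943 (MOR171-44, ENSMUSG00000094970) had 4.91, 11.3 and 7.92 CPM with floral and 4.21, 4.66 and 4.95 CPM with floral-mint, against 1.21, 1.43 and 1.71 CPM in controls. Mint libraries, at 2.15, 1.71 and 2.08 CPM, reached only slightly above the controls. Floral exceeded mint by 2.02 on the log2 scale (SE 0.267, edgeR adjusted p 0.00117), and the changes over controls were 2.47 with floral and 1.67 with floral-mint (edgeR adjusted p 6.1e-05 and 0.00160). Olfr881 went the other way, with 0.467, 0.194 and 0.410 CPM with floral, against 2.39, 3.62 and 5.95 CPM with mint. The log2 difference was -3.46 (SE 0.500, edgeR adjusted p 0.00275), and mint was above controls by 3.11 (SE 0.482, edgeR adjusted p 0.000873). Olfr978 (MOR223-3) had 0.0779, 0.427 and 0.123 CPM with floral, against 1.29, 1.79 and 1.91 CPM with mint, at -2.95 (SE 0.519, edgeR adjusted p 0.0172). Floral against mint thus gave 1 member higher and 2 lower, where 2.8% and 4.46% of receptors outside the series and 0.13% and 0.224% of all genes were called.

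**Figure D5:**
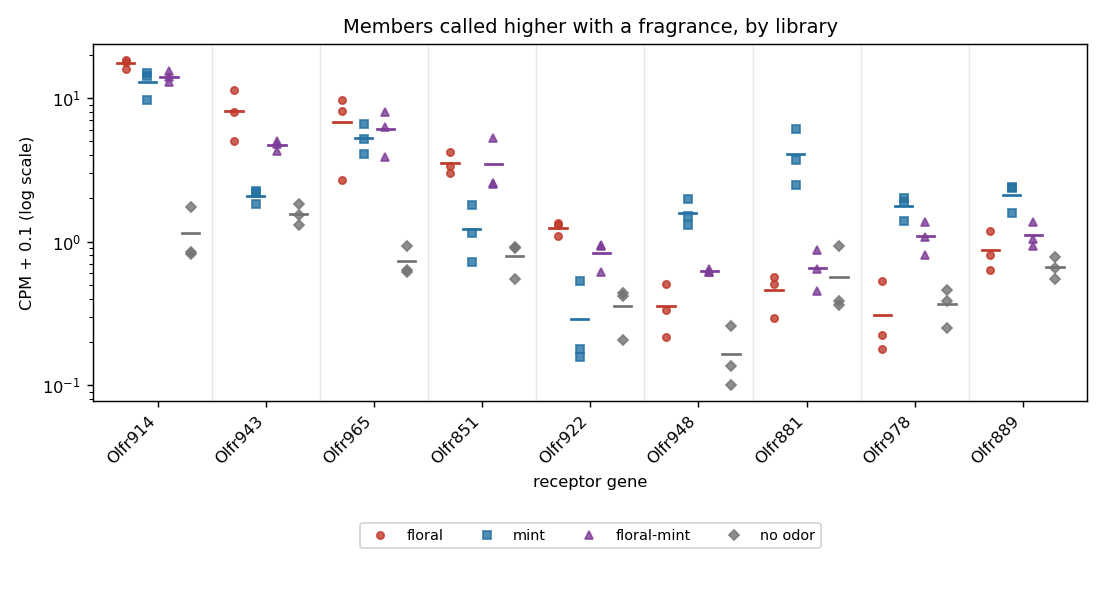
CPM plus 0.1 on a log axis (y) for the 9 members called higher with at least 1 fragrance (x) in the 4 groups of the FM set; points are libraries and short bars are means of 3 libraries. Olfr914 libraries lie at 9.58 to 18.2 CPM with any fragrance against 0.718 to 1.65 CPM in controls, while Olfr881 is called with mint, at 2.39 to 5.95 CPM.

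Olfr851 had 2.88, 4.08 and 3.24 CPM with floral and 5.13, 2.43 and 2.47 CPM with floral-mint, against 0.819, 0.451 and 0.797 CPM in controls, at log2 changes of 2.30 and 2.27 (edgeR adjusted p 0.00200 and 0.00221). Mint libraries, at 0.623, 1.05 and 1.68 CPM, overlapped the controls. Olfr948 (MOR171-45) had 1.197, 1.87 and 1.40 CPM with mint and 0.540, 0.509 and 0.510 CPM with floral-mint, against 0.0356, 0 and 0.159 CPM in controls, at 4.46 and 2.95 (edgeR adjusted p 0.000523 and 0.0145). Those controls held 1, 0 and 4 counts, so the size of both changes rests on few control counts. In its coding sequence Olfr948 was 87.14% identical to Olfr943, which was called with floral. Olfr889 had 1.48, 2.26 and 2.30 CPM with mint, against 0.676, 0.451 and 0.558 CPM in controls, at 1.83 (SE 0.353, edgeR adjusted p 0.00412). Olfr922 had 1.21, 1.24 and 0.984 CPM with floral, against 0.107, 0.338 and 0.319 CPM in controls, at 2.16 (SE 0.548, edgeR adjusted p 0.0183). Olfr935, called higher with acetophenone, was the member called lower with floral by edgeR and not by DESeq2. It had 0.0389, 0.194 and 0 CPM with floral, against 0.356, 0.601 and 0.518 CPM in controls, at -2.56 (SE 0.774, edgeR adjusted p 0.0391). Single libraries decided some of these: Olfr922 was lost with floral without control replicate 1 or floral replicate 2, and Olfr935 in 5 of 6 fits, all but the one without floral replicate 2. With floral-mint, Olfr978 was lost in 5 of 6 fits, all but the one without mixture replicate 3, and Olfr948 without control replicate 1. Scaled to the median receptor gene, Olfr935 with floral had an edgeR adjusted p of 0.0557 and Olfr978 with floral-mint of 0.0519, and the call of Olfr978 was also missed with the replicate block (edgeR adjusted p 0.0565).

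The floral-mint blend differed from floral in 0 members by edgeR, with 3 higher and 3 lower at an unadjusted p under 0.05 and 0 by DESeq2, where 2.29% and 0% of receptors outside the series and 0.115% and 0.00521% of all genes were called. Against mint it had 1 member lower and 0 higher, where 1.4% of receptors outside the series were higher and 0.764% lower, and of all genes 0.0625% and 0.0417%. Higher at an unadjusted p under 0.05 were 8 members, and DESeq2 called 2. Olfr881 was the lower member, with 0.772, 0.548 and 0.353 CPM with floral-mint, against 2.39, 3.62 and 5.95 CPM with mint, at -2.82 (SE 0.472, edgeR adjusted p 0.0269). That call was lost without mint replicate 3 or any 1 of the floral-mint libraries, and with the replicate block (edgeR adjusted p 0.0691).

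Across sets 15 members were called higher in 1 set, 5 in 2 sets and 1 in all 3. These are 22.1%, 7.35% and 1.47% of the 68 members tested, where the shares were 25.3%, 13.1% and 3.16% of receptors outside the series and 19.5%, 6.92% and 3.75% of all genes. Olfr922 was the one called in all 3, with acetophenone, the acetophenone-decanal mixture, octanal, the octanal-hexenol mixture and floral. Olfr847 and Olfr898 were called with acetophenone and with octanal, which Olfr922 was as well. Olfr881 and Olfr889, both of MOR162, were called with acetophenone and with mint, and Olfr851 with octanal and floral. The sets have separate controls and may differ as batches, so sizes were not tested between them. Side by side, Olfr922 reached 11.97 ± 5.95 CPM with acetophenone, 4.15 ± 3.06 CPM with octanal and 1.15 ± 0.140 CPM with floral (SD, n = 3 each), against 0.465 ± 0.383, 0.330 ± 0.0827 and 0.255 ± 0.128 CPM in the controls of those sets.

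The 250 bases before each annotated gene start were searched on both strands for motifs linked to receptor gene promoters, and a window counted when it held at least 1 match. RefSeq windows (GRCm38) were found for 87 members, as 88 windows. In 61 of these the annotated gene start is the start codon, so the window is not placed by a transcription start. The homeodomain core TAATTA was found in 26.1% of the members' windows, in 17.3% of the windows of other receptors and in 4.84% of all windows. The related core TAATGA was in 26.1%, 25.2% and 8.59%, and the Ebf (Olf1) motif, TCCC and GGGA with 2 or 3 bases between, in 1.14%, 1.05% and 1.44%. These matches are descriptions of letters in the windows and are not binding sites.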

How the data were processed

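The authors deposited 3 tables of expected counts, 1 for each set of 12 libraries made with a stranded TruSeq mRNA kit. GRCm39 is the build in the submitters' processing notes, which also list Salmon 1.10.1, STAR 2.7.10b and R 4.4.2, with no step given. The annotation behind the deposited counts is not given in the sources used here. Expected counts can divide reads that fit several genes, so near-identical receptors are not separate measurements. Symbols came from GENCODE vM21 (GRCm38), so no positions are printed.

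Counts were rounded and each set was fitted alone with R 4.3.3 and edgeR 4.0.16 (filterByExpr with minimum count 10 and minimum total 15, TMM scaling, prior count 0.125, 2-sided quasi-likelihood test), with limma 3.58.1. The Benjamini-Hochberg adjustment covered every gene tested in a set, with a threshold of 0.05. CPM used TMM-scaled library sizes. A fold against a group at 0 is a bound on summed counts at 3 counts over the group, and does not cover the spread between libraries. The procedure was tested on simulated data before use. Alternatives were DESeq2 1.42.0, scaling to the median receptor gene, no filter, the replicate number as a block and leaving out each library. Between libraries of a group, 24906 to 27450 genes had different counts, and none was a duplicate. Copies were found with BLASTN 2.17.0 and coding sequences aligned with MAFFT 7.526.

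The members, gene lists and tests were chosen with earlier results of these data known. Named members were, for each odor, the 6 called higher and 3 called lower with the smallest p, for each other comparison the 3 each way, the 5 highest in controls and those called higher in at least 2 sets. Called members outside this rule are named where a count is described, and were chosen after their values were seen.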

Additional observations from a re-analysis of the deposited data

Results flagged for a closer look

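Olfr898 differed between acetophenone and decanal, which moved it in opposite directions against the same controls. It had 188, 329 and 148 counts with acetophenone and 0, 0 and 0 with decanal, against 3, 23 and 15 counts in controls. The difference between the odors was tested directly and had an edgeR adjusted p of 2.61e-05. In the OC set it was also low without odor, at 0, 2 and 0 counts.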

How the results depend on the processing

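Of 634 settings tried for 64 results on named members, 580 kept direction and call, 54 kept direction but missed the threshold and 0 reversed. Without the filter on low counts the number of members called was 3 with decanal, 13 for the acetophenone-decanal mixture against acetophenone and 9 against decanal, 10 with octanal, 1 with cis-3-hexenol, 4 for the octanal-hexenol mixture against cis-3-hexenol, 17 for octanal against cis-3-hexenol, 10 with floral, 2 for floral-mint against floral, 4 against mint and 9 for floral against mint. By DESeq2 it was 3 with decanal, 12 for the acetophenone-decanal mixture against acetophenone and 9 against decanal, 1 with cis-3-hexenol, 3 for floral-mint against mint and 6 for floral against mint. Scaling to the median receptor gene gave 1 with cis-3-hexenol. The counts without the filter test 95 to 98 members, and for the rest the cause was not tested. No sign of pairing was found: correlations of same-numbered libraries ran from -0.194 to 0.187, and of differently numbered ones from -0.280 to 0.206. With 3 libraries per group this cannot exclude a pairing. With the replicate block 17 of 18 counts stayed within 1.5 times, the exception being 0 for floral-mint against mint. With 1 library left out, counts ran from 6 to 14 with acetophenone, 1 to 2 with decanal, 7 to 10 with their mixture, 3 to 6 for this mixture against acetophenone, 3 to 6 against decanal and 12 to 18 for acetophenone against decanal. They ran from 3 to 18 for octanal against cis-3-hexenol and 0 to 1 for floral-mint against mint. Without members that have copies, the share of receptor counts was 1.30% with decanal, 1.32% with octanal, 1.29% with the octanal-hexenol mixture, 2.78% in OC controls, 1.45% with mint, 1.62% with floral-mint and 1.60% in FM controls. Summed CPM in FM controls was 60.8 with library totals in place of TMM. Low counts limit 34 members to no test.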

Other observations

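Olfr877, the third MOR161 member and one outside the naming rule, had 1.47 ± 1.37 CPM with acetophenone, against 0.0817 ± 0.142 CPM with the acetophenone-decanal mixture (SD, n = 3 each), and libraries overlapped. The mixture was lower at a log2 difference of -4.11 (SE 1.16, edgeR adjusted p 0.0183), although acetophenone itself was not called against controls for this member.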
